A study of Homo sapiens with 6 samples.

Results

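The genes that carry cells from G1 into S phase were followed in A2780, a human ovarian cancer cell line, after lentiviral short hairpin RNAs (shRNAs) against BMI1 or against FAL-1. The set holds 10 genes of 18418 measured. They are the D cyclins CCND1, CCND2 and CCND3, the E and A cyclins CCNE1, CCNE2 and CCNA2, the kinases CDK2, CDK4 and CDK6, and the phosphatase CDC25A. They were chosen by name, as the probe sets annotated to 1 of these genes and to no other gene, which gave 1 probe set for each.

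The 6 arrays read 6 infected A2780 populations. The BMI1 control, BMI1 shRNA1 and BMI1 shRNA2 made up one trio, and the FAL-1 control, FAL-1 shRNA1 and FAL-1 shRNA2 the other. BMI1 encodes a Polycomb protein that helps to silence genes, and FAL-1 is a long non-coding RNA. All cells were infected with lentivirus, grew in 10% fetal bovine serum, had the virus removed at 24 hours and were harvested at 96 hours. No uninfected cells were among the arrays, the control virus is given only as a control shRNA, and selection of infected cells is not described. Each control is 1 array, so its own spread was not measured, and errors below are the SD of the 2 hairpins of a target. The p-values and 95% intervals below rest on the spread between the 2 hairpins of a target, pooled over both trios. For each gene this spread is also drawn toward the spread over all genes, so it is not that of the gene alone. Each control is assumed to vary like the hairpins, and the FAL-1 spread also enters the BMI1 intervals. Whether the infections were independent cultures or days is not stated. The p-values therefore measure only the spread between these samples, which may be technical or lie between the hairpins.

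Entry into S phase is driven by cyclins, which rise and fall, bound to cyclin-dependent kinases (CDKs), which need them to be active. D cyclins respond to growth signals and activate CDK4 and CDK6, which begin to phosphorylate the retinoblastoma protein RB and so release E2F transcription factors. E2F factors in turn switch on the genes for cyclin E and cyclin A, the partners of CDK2, and for CDC25A, which removes inhibitory phosphates from CDK2. The inhibitor p21, the product of CDKN1A, blocks these kinases, and RB family proteins with E2F partners can repress the E2F target genes.

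The targeted gene BMI1, whose probe set is shared with the readthrough gene COMMD3-BMI1, stood at 10.64 (log2 probe set value) in the BMI1 control, 8.73 with BMI1 shRNA1 and 9.99 with BMI1 shRNA2, so the remaining signal was 26.8% and 64.0% of the control. FAL-1 is not named among the probe sets used, so its knockdown was not checked. FAL-1 shRNA2 stood apart from the other arrays: it correlated with them at 0.968 to 0.980 across genes, where the other arrays correlated at 0.982 to 0.993, and 2064 genes differed from its control by 1.5-fold or more, against 463, 922 and 1072 for the other hairpins. Results are therefore given hairpin by hairpin. The keratin genes KRT8 (9.04 to 11.07) and KRT18 (8.45 to 9.58) read above the array medians of 7.50 to 7.61, but 5 other epithelial or ovarian carcinoma markers did not (CDH1, EPCAM, PAX8, WT1 and MUC16, 5.80 to 7.05). The blood marker PTPRC read 5.0 to 5.1. The fibroblast markers COL1A1, COL1A2 and DCN averaged 9.15 in the BMI1 control, 9.11 and 9.36 with its hairpins, 9.40 in the FAL-1 control, and 9.75 and 9.93 with the FAL-1 hairpins. They did not move alike: COL1A1 and COL1A2 were above the FAL-1 control with both hairpins, while DCN read 9.94, 10.30 and 9.78 in that trio. FAL-1 control minus BMI1 control was 0.88 for DCN, 0.13 for COL1A1 and -0.25 for COL1A2. KRT8 was highest with FAL-1 shRNA2, at 11.07 beside 9.28 in its control. Of the 3 blood markers measured, HBB was also highest there, at 7.71 beside 6.50, while CD3E (6.26 beside 6.35) and PTPRC were below the FAL-1 control with both FAL-1 hairpins. The part of these shifts in the results below was not tested.

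The members did not move as a block. With both knockdowns, CCNE1, CCNE2 and CCNA2 stood below the control with each of the 4 hairpins, although the CCNE1 change of -0.073 with BMI1 shRNA2 turned to 0.0035 after quantile normalization and 0.0033 after cyclic loess. CDK4 and CDK6 stood above the control with each of the 4. CCND1 and CCND3 were lower with both BMI1 hairpins and lay on either side of the control with FAL-1. Counted over members, 8 of 10 were below the BMI1 control with both hairpins, beside 30.7% of all genes, and 2 were above it, beside 32.9%. With FAL-1 shRNAs, 3 of 10 were below with both hairpins, beside 27.7% of all genes, and 3 were above, beside 37.2%. The 2 hairpins of a target share their control array, so they are not independent, for members and for all genes alike. Over all 4 hairpins, 3 members were below, beside 14.1% of genes, and 2 above, beside 17.0%.

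**Figure D1:**
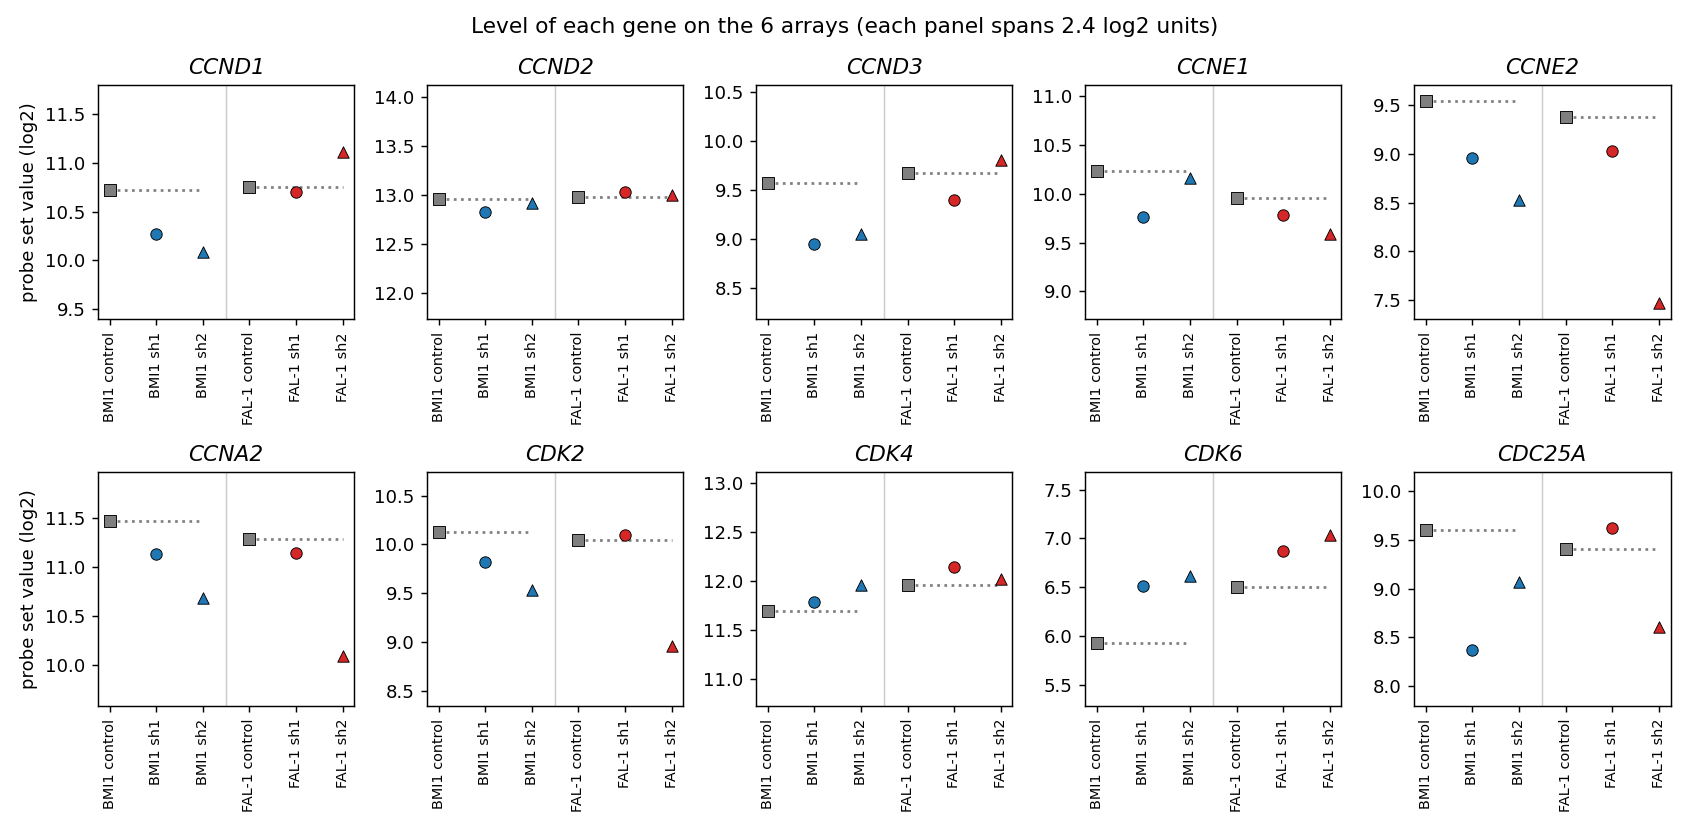
Log2 probe set value (vertical axis) of each gene on the 6 arrays (horizontal axis), with controls as grey squares, BMI1 hairpins in blue and FAL-1 hairpins in red (circle shRNA1, triangle shRNA2). Dotted lines carry each control's value across its trio. The 2 BMI1 hairpin values of CCND1 and CCND3 are the lowest of the 6, and CCNE2 reaches its lowest value, 7.47, with FAL-1 shRNA2.

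None of the members passed the test across genes. With limma, 0% of the 18418 genes had an adjusted p under 0.05 for BMI1 knockdown, for FAL-1 knockdown, for the average of both or for the difference between them. At an unadjusted p under 0.05, limma gave 477 genes (2.59%) for BMI1, 563 (3.06%) for FAL-1, 962 (5.22%) for the average and 148 (0.804%) for the difference. CDK6 was the 1 member among them, for BMI1, FAL-1 and the average. If no gene changed, this threshold would still pass a share of about 0.05 of genes, and only the average exceeded that share. All directions below therefore describe these arrays, and limma's adjusted p was 0.9998 for every member with BMI1 knockdown and 0.999 for every member with FAL-1 knockdown. No member differed from its control by 1.5-fold or more with both hairpins of a target. Among all genes, 0.901% were lower and 0.538% higher by that measure with BMI1, and 0.635% lower and 0.576% higher with FAL-1. In bulk RNA, fewer cells in a cell cycle phase and less RNA per cell cannot be told apart.

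Promoter sequences are shown for 3 members whose hairpin values lay mostly or wholly on one side of the control. CCNE1 also lay below with all 4 hairpins and had 1 window, but that window held no motif match and is not shown. CCND3, lower with 3 of the 4 hairpins, and CDK6, higher with all 4, had more than 1 window and are not shown either. RefSeq windows on GRCh38.p14, from 250 bases before to 50 after a start site, were available for 6 of the 10 genes (CCND3 with 3 windows, CDK6 with 2, and CCNE1, CCNA2, CDK4 and CDC25A with 1 each). The 250 bases before the start are shown for CDC25A and CCNA2, which stood lower with 3 and 4 of the 4 hairpins, and for CDK4, which stood higher with all 4. All 3 lie on the minus strand and are written 5′ to 3′, with capitals marking motif matches on either strand.
CDC25A, chr3:48188418-48188667: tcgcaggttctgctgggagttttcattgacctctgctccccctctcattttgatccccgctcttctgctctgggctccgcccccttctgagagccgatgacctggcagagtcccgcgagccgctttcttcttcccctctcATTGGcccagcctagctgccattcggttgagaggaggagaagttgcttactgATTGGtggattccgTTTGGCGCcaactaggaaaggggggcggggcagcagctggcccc
CCNA2, chr4:121823884-121824133: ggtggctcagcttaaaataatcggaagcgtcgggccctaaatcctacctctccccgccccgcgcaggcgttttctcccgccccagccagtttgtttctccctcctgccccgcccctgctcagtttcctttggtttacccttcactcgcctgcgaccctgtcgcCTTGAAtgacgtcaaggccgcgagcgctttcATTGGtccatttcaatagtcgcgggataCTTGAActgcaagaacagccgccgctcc
CDK4, chr12:57752311-57752560: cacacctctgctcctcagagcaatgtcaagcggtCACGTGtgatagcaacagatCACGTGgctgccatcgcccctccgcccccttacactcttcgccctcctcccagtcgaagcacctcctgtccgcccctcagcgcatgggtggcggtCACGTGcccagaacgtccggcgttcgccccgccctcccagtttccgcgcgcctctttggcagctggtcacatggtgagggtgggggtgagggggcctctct

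The CDC25A window held 1 match to the E2F site, searched as TTTCCCGC or TTTCGCGC or TTTGCCGC or TTTGGCGC, which begins 44 bases before the start, and 2 to the CCAAT box, read on the other strand as ATTGG. Of 35116 promoter windows in the table, 3.31% held an E2F match and 34.6% a CCAAT match. The CCNA2 window held 2 matches to the cell cycle genes homology region (CHR), the element through which repressor complexes of the RB family act on many cell cycle genes, searched as TTTGAA or CTTGAA or TTCGAA and present in 24.9% of windows. These began 87 and 28 bases before the start, and 1 CCAAT match began at 56. The CDK4 window held 3 matches to the E-box CACGTG, the letters that MYC family factors bind, where 7.26% of windows held any. The CCNE1 window held none of the 4 motifs, and 1 CDK6 window held an E-box 31 bases after the start. CCND3 windows 2 and 3 each held 1 CCAAT match, and window 1 held none. No CCND3 window held an E2F, CHR or E-box match. Matches did not overlap each other. They are letters in these windows, and whether a factor bound them was not measured.

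CCND1 encodes cyclin D1, the D cyclin most often amplified in tumours. It read 10.73 in the BMI1 control, 10.27 with BMI1 shRNA1 and 10.09 with BMI1 shRNA2, and 10.75 in the FAL-1 control, 10.70 with FAL-1 shRNA1 and 11.11 with FAL-1 shRNA2. Both BMI1 hairpins lay below all 4 other arrays, and FAL-1 shRNA2 was the highest. The log2 change with BMI1 knockdown was -0.55 ± 0.13 (SD, n = 2 hairpins), with a 95% interval from limma of -1.14 to 0.05. With FAL-1 knockdown it was 0.15 ± 0.29, and the interval of -0.45 to 0.75 covered changes either way.

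CCND3, cyclin D3, shared its 2 lowest arrays with CCND1. It read 9.57 in the BMI1 control, 8.94 and 9.05 with its hairpins, 9.67 in the FAL-1 control, and 9.40 and 9.81 with the FAL-1 hairpins. The BMI1 hairpins lay below the other 4 arrays, at 64.9% and 69.9% of their control. The change was -0.57 ± 0.08 with BMI1 knockdown (SD, n = 2 hairpins), and -0.07 ± 0.29 with FAL-1 knockdown. CCND2, cyclin D2, had the narrowest range of all members, 0.21 log2 units over the 6 arrays. It read 12.96, 12.82 and 12.92 in the BMI1 trio and 12.98, 13.034 and 13.004 in the FAL-1 trio, so every change was under 10%.

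The widest differences between the trios were those of CCND1, CDC25A and CCND3. FAL-1 change minus BMI1 change was 0.70 for CCND1, with a 95% interval of -0.15 to 1.54, 0.59 for CDC25A, with an interval of -1.40 to 2.57, and 0.50 for CCND3, with an interval of -0.31 to 1.31. For the other 7 members it lay between -0.33 and 0.13. None of these differences passed limma's test (adjusted p = 0.9999 for every member). The FAL-1 control exceeded the BMI1 control by 0.028 for CCND1 and 0.10 for CCND3. Against the FAL-1 control, the BMI1 hairpins read -0.48 and -0.67 for CCND1, and -0.73 and -0.62 for CCND3.

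CCNE2, cyclin E2, had the widest range of the members. It read 9.54 in the BMI1 control, 8.96 with BMI1 shRNA1, 8.53 with BMI1 shRNA2, 9.38 in the FAL-1 control, 9.03 with FAL-1 shRNA1 and 7.47 with FAL-1 shRNA2. Every hairpin lay below both controls, and FAL-1 shRNA2 lay more than 1 log2 unit below the next lowest array. The log2 change was -0.79 ± 0.31 with BMI1 knockdown and -1.12 ± 1.10 with FAL-1 knockdown (SD, n = 2 hairpins each), so the FAL-1 value rested on shRNA2, at 26.7% of its control beside 78.9% for shRNA1. Of all genes, 0.141% had a lower change with FAL-1 shRNA2 and 5.61% with shRNA1.

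CCNA2, cyclin A2, which acts through S phase and into G2, showed the same order in smaller steps. It read 11.47, 11.13 and 10.68 in the BMI1 control, shRNA1 and shRNA2, and 11.29, 11.14 and 10.08 in the FAL-1 trio. All 4 hairpins lay below both controls. The changes were -0.56 ± 0.32 with BMI1 knockdown and -0.67 ± 0.75 with FAL-1 knockdown (SD, n = 2 hairpins).

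CCNE1, cyclin E1, had a narrower range than CCNE2, and its lowest array was likewise FAL-1 shRNA2. It read 10.24, 9.76 and 10.16 in the BMI1 trio and 9.96, 9.78 and 9.59 in the FAL-1 trio. With BMI1 shRNA2 it stood at 95.1% of the control, and this array lay above the FAL-1 control, so the BMI1 change of -0.28 ± 0.29 (SD, n = 2 hairpins) became 0.0053 against the FAL-1 control. The FAL-1 change was -0.27 ± 0.14, and -0.55 against the BMI1 control.

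CDK2, the kinase partner of cyclins E and A, read 10.13 in the BMI1 control, 9.82 and 9.53 with its hairpins, 10.05 in the FAL-1 control, 10.10 with FAL-1 shRNA1 and 8.96 with FAL-1 shRNA2. FAL-1 shRNA1 lay between the controls, and shRNA2 at 47.2% of its own. The changes were -0.45 ± 0.21 with BMI1 and -0.52 ± 0.80 with FAL-1 knockdown (SD, n = 2 hairpins). CDC25A had a different lowest array: it read 9.60 in the BMI1 control, 8.37 with BMI1 shRNA1, 9.07 with BMI1 shRNA2, 9.41 in the FAL-1 control, 9.62 with FAL-1 shRNA1 and 8.60 with FAL-1 shRNA2. BMI1 shRNA1 gave the lowest value, 42.7% of the control, and FAL-1 shRNA1 the highest of the 6. The BMI1 change was -0.88 ± 0.49 and the FAL-1 change -0.30 ± 0.72, which without FAL-1 shRNA2 was 0.21.

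CDK4 and CDK6, the kinases of the D cyclins, stood on the other side of zero. CDK4 read 11.69, 11.78 and 11.96 in the BMI1 control, shRNA1 and shRNA2, and 11.96, 12.14 and 12.02 in the FAL-1 trio. Its changes were small, 0.18 ± 0.13 with BMI1 and 0.12 ± 0.08 with FAL-1 knockdown (SD, n = 2 hairpins), and the BMI1 value became -0.094 against the FAL-1 control. CDK6 read 5.93, 6.51 and 6.61 in the BMI1 trio and 6.51, 6.88 and 7.04 in the FAL-1 trio. Each hairpin lay above its own control, but the FAL-1 control lay within 0.01 of BMI1 shRNA1. The changes were 0.63 ± 0.07 with BMI1 (95% interval 0.24 to 1.03) and 0.45 ± 0.11 with FAL-1 knockdown (0.055 to 0.85). Against the other control the BMI1 mean was 0.055 and the FAL-1 mean 1.03. All 6 CDK6 values lay below the array medians, and no detection values were available to place them against background.

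**Figure D2:**
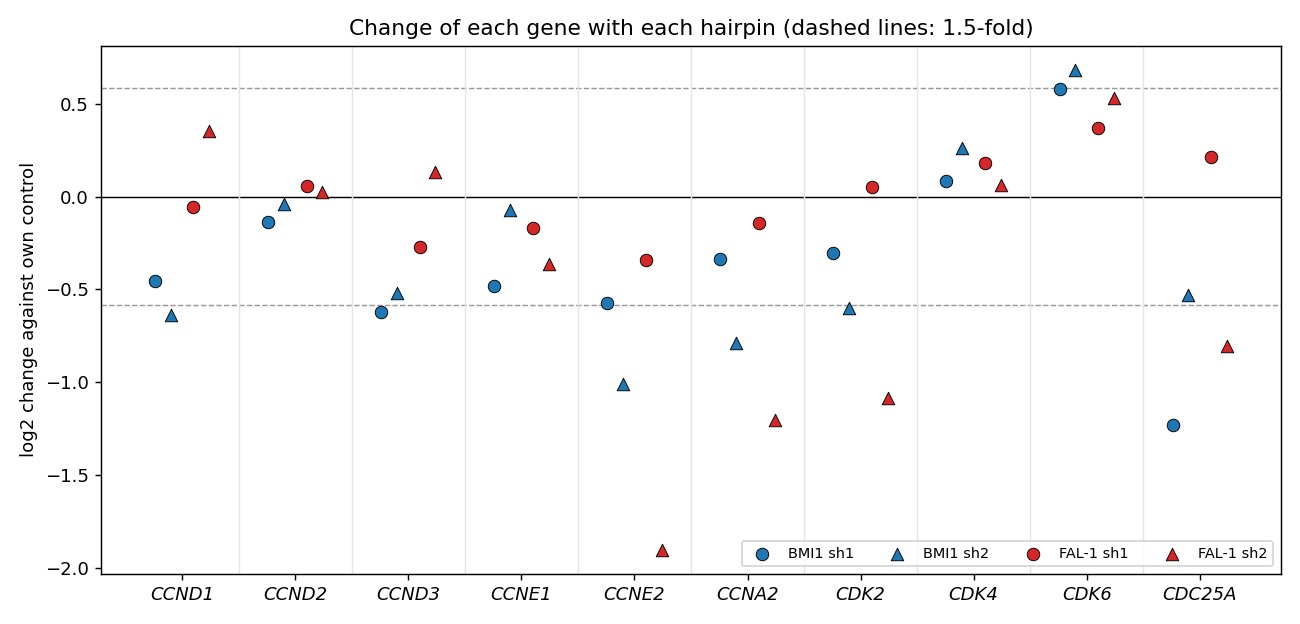
Log2 change of each gene against its own control (vertical axis) for BMI1 shRNA1 and shRNA2 (blue circle and triangle) and FAL-1 shRNA1 and shRNA2 (red circle and triangle), with dashed lines at 1.5-fold. Each point is 1 array minus 1 control array. CCNE1, CCNE2 and CCNA2 have all 4 points below zero, CDK4 and CDK6 all 4 above, and the widest gap within a target is CCNE2 with FAL-1, from -0.34 to -1.90.

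The hairpin with less BMI1 signal left was not the one with the larger changes throughout. Of the 8 members below the BMI1 control with both hairpins, 4 were lower with shRNA1 (CCND2, CCND3, CCNE1 and CDC25A) and 4 with shRNA2 (CCND1, CCNE2, CCNA2 and CDK2). The median change over the 10 members was -0.40 with BMI1 shRNA1 and -0.52 with shRNA2, beside -0.01 and 0.02 over all genes. For FAL-1 it was 0.00 with shRNA1 and -0.17 with shRNA2, beside 0.01 and 0.05 over all genes. Taken singly, each BMI1 hairpin had 8 of 10 members below the control, beside 51.9% of all genes for shRNA1 and 45.9% for shRNA2. Each FAL-1 hairpin had 5 of 10 below, beside 48.5% of all genes for shRNA1 and 42.0% for shRNA2, shares near the background. CCNE1, CCNE2 and CCNA2 were the members below with both FAL-1 hairpins.

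**Figure D3:**
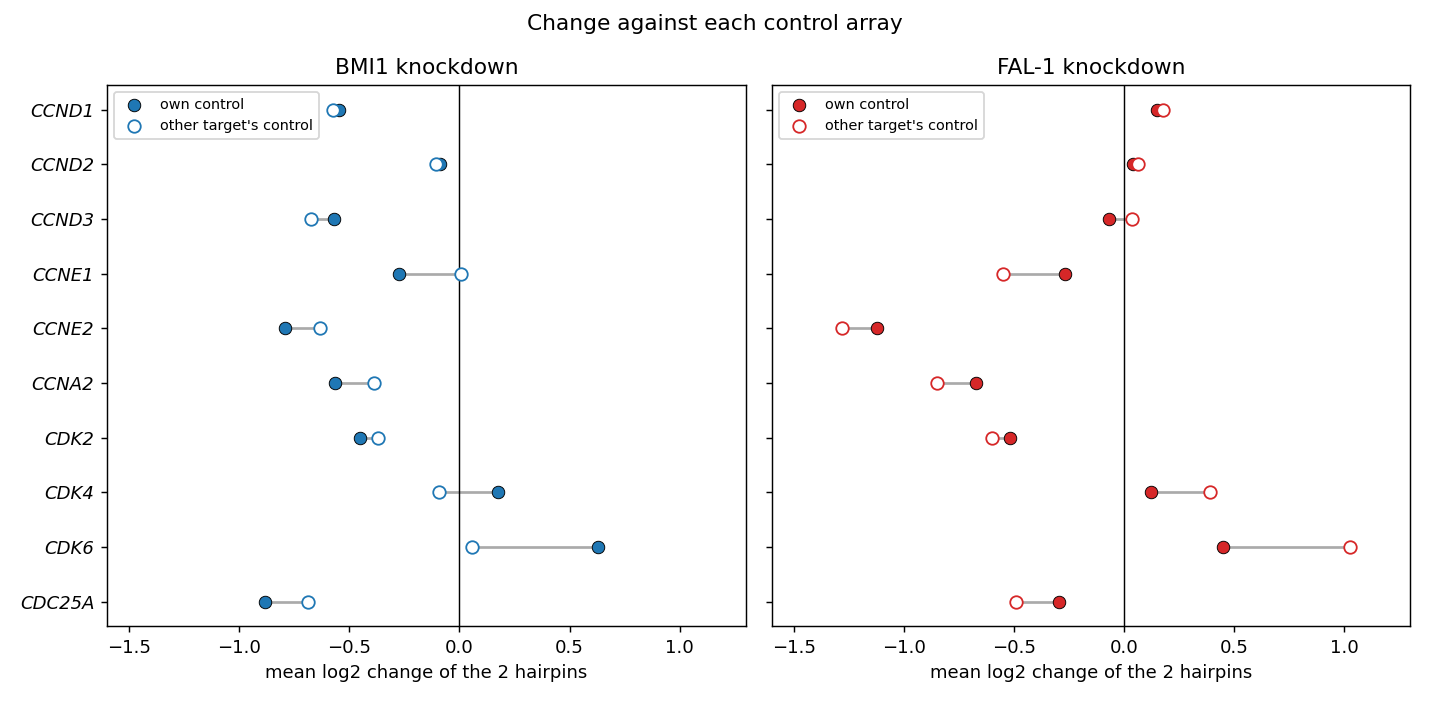
Mean log2 change of the 2 hairpins (horizontal axis) against the target's own control (filled) and against the other target's control (open) for each gene, with BMI1 knockdown on the left and FAL-1 knockdown on the right. Lines join the values, and their length is the difference between the control arrays. It is largest for CDK6, at 0.58, and smallest for CCND2, at 0.02.

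The control arrays differed most for the kinases of D cyclins and for CCNE1. The FAL-1 control exceeded the BMI1 control by 0.58 for CDK6 and by 0.27 for CDK4, and was lower by 0.28 for CCNE1, while the other 7 members differed by 0.02 to 0.19 in either direction. Against the other target's control, 8 members lay below with both BMI1 hairpins, beside 37.7% of all genes, and 4 with both FAL-1 hairpins, beside 28.1%. Those 8 did not include CCNE1 and did include CDK4.

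Members were also compared by shape over the arrays, after the mean of each trio was subtracted. The closest pairs were among CCNE2, CCNA2 and CDK2, with Pearson r of 0.992 for CCNE2 and CCNA2, 0.981 for CCNE2 and CDK2, and 0.985 for CCNA2 and CDK2 over 6 arrays. Without FAL-1 shRNA2 these were 0.977, 0.914 and 0.961 over 5 arrays. CCND1 and CCND3 had 0.879, or 0.862 without that array. CCND1 and CCNE2 had -0.11 over 6 arrays and 0.96 over 5, so their separation rested on FAL-1 shRNA2, where CCND1 had its highest value and CCNE2 its lowest. These values describe points that share arrays and controls, and no test was made of them. Among 9200 genes at or above the median level, those most like CCNE2 were STRBP, DUT and FBXO5 (r of 0.9996, 0.9992 and 0.9991), those most like CCND1 were CBLL1, ADARB1 and UBQLN2 (0.998, 0.995 and 0.993), and those most like CDC25A were PAXX, NDRG2 and PAAF1 (0.999, 0.998 and 0.998). DUT, the enzyme that keeps uracil out of DNA, read -0.34 and -0.56 with the BMI1 hairpins and -0.17 and -1.13 with the FAL-1 hairpins. FBXO5, an inhibitor of the anaphase-promoting complex, read -0.37, -0.65, -0.20 and -1.11 in the same order. STRBP read -0.48, -0.85, -0.34 and -1.70, CBLL1 -0.23, -0.33, -0.01 and 0.18, and ADARB1 -0.28, -0.36, -0.07 and 0.20. UBQLN2 read -0.11, -0.16, 0.002 and 0.11, and PAXX -0.19, -0.09, 0.03 and -0.14. NDRG2 read -0.89, -0.41, 0.08 and -0.61, and PAAF1 -0.65, -0.23, 0.09 and -0.43. Here r measures shape and not size, and r near 1 can come from searching 9200 genes over 6 arrays.

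Around the members, 50 of 52 listed genes of G1 and S phase control were measured (CDKN2C and CDK3 were not among the named probe sets). None passed limma's adjusted test. Over all genes, 30.7% were below and 32.9% above with both BMI1 hairpins, and 27.7% below and 37.2% above with both FAL-1 hairpins. Beside these shares, 4 of 6 CDK inhibitors were above with both BMI1 hairpins and none below, with a median change of 0.23. With FAL-1, 2 were above and 1 below, with a median of 0.08. Against the other target's control, the CDK inhibitor median was 0.03 with BMI1 and 0.37 with FAL-1. CDKN1A, which encodes p21, read 0.84 and 1.15 above the control with the BMI1 hairpins and 0.52 and 2.05 with the FAL-1 hairpins. CDKN1B, which encodes p27, read 0.17 and 0.37 with BMI1 and 0.49 and -0.28 with FAL-1, but -0.32 on average against the FAL-1 control with BMI1.

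RB family and E2F genes were mixed. Of 13, 8 were below and 3 above with both BMI1 hairpins (median -0.13), beside 30.7% and 32.9% of all genes. With both FAL-1 hairpins, 7 were below and 4 above (median -0.42), beside 27.7% and 37.2%. RB1 stayed within 0.20 of its control on every array. E2F2, an activating E2F, read -0.52 and -0.67 with BMI1 and -0.72 and -1.25 with FAL-1 hairpins, and E2F1 read -0.17, -0.08, -0.23 and -0.70. The E2F2 levels on the hairpin arrays, 6.51 to 7.05, lay below the array medians.

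Other lists held genes that act on the kinases or on cyclin turnover. Of 9 genes for CDK activation and inhibition, 5 were below with both BMI1 hairpins, beside 30.7% of all genes. With both FAL-1 hairpins 3 were below, beside 27.7%, and none were above with either target, beside 32.9% and 37.2%. CDC25B, a relative of CDC25A, read -0.31 and -0.16 with BMI1 and 0.10 and -0.39 with FAL-1, and WEE1, the kinase that opposes CDC25, read 0.34 and -0.52, and 0.29 and -0.53. Of 7 degradation genes, 3 were below and 1 above with both BMI1 hairpins, and 0 below and 3 above with both FAL-1 hairpins, beside the same shares. FBXW7, the F-box protein that directs cyclin E to degradation, read 0.77 and 0.57 with BMI1 and 0.73 and 1.32 with FAL-1, above the control with all 4 hairpins. SKP2, which directs p27 to degradation, read -0.21, -0.36, 0.18 and -0.46.

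S phase and mitotic genes had the lowest medians of the lists with BMI1 hairpins and with FAL-1 shRNA2. All 10 S phase and proliferation genes were below the control with both BMI1 hairpins, at medians of -0.46 and -0.69, beside 30.7% of all genes. With both FAL-1 hairpins 7 of 10 were below, at -0.06 and -1.03, beside 27.7%. MKI67, a marker of dividing cells, read -0.44 and -0.72 with BMI1 and 0.22 and -1.41 with FAL-1. PCNA, the sliding clamp of DNA polymerases, read -0.14 and -0.20, and -0.41 and -0.05. Of 5 mitotic relatives, 4 were below and 0 above with both BMI1 hairpins, beside 30.7% and 32.9% of all genes. With both FAL-1 hairpins 3 were below and 1 above, beside 27.7% and 37.2%. The 1 above was CCNA1, the germline cyclin A, at 0.10 and 0.75, named after its values were seen. CDK1 read -0.47, -0.75, -0.19 and -1.37, and CCNB1, cyclin B1, read -0.23, -0.46, -0.17 and -0.80. The part of the share of dividing cells in the values of the members was not tested.

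**Figure D4:**
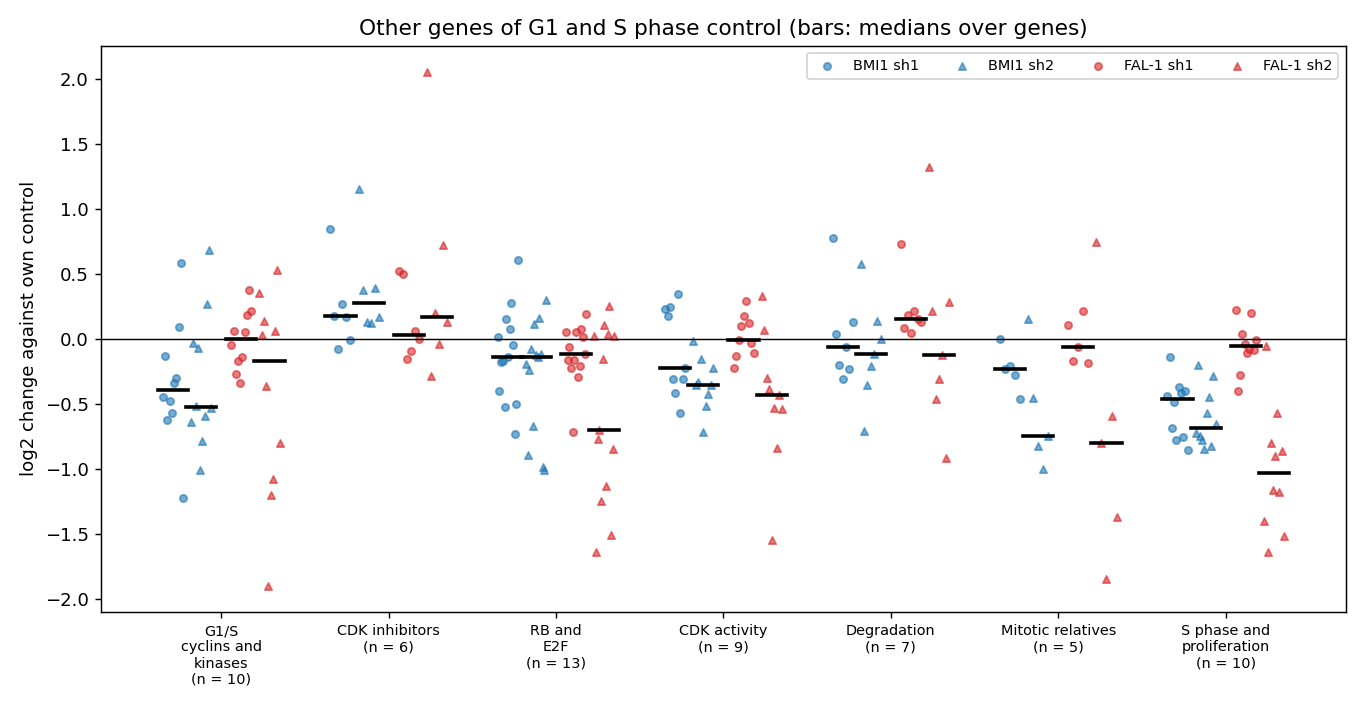
Log2 change against own control (vertical axis) of the 10 cyclins and kinases and of 6 lists of other G1 and S phase genes (horizontal axis), by hairpin. Each point is a gene and each black bar the median over genes. The S phase and proliferation list lies at -0.06 with FAL-1 shRNA1 and -1.03 with FAL-1 shRNA2, while the CDK inhibitors have medians above zero with all 4 hairpins.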

How the data were processed

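Per the labels' protocols, cDNA from total RNA was labelled for Affymetrix GeneChip arrays, 1 per infection. The authors deposited log2 values for 33252 probe sets (the scale is judged from the range). The submitters' processing notes name RMA, and its version and settings are not given in the sources used. The platform annotation gave 19460 probe sets 1 gene symbol, 1754 several and 12038 none. Probe sets with 1 symbol were kept. Genes with several probe sets were represented by the brightest, which left 18418, with BMI1 read from the probe set it shares with its readthrough transcript.

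With limma 3.58.1 under R 4.3.3 (lmFit and eBayes), 4 group means were fitted to the 6 arrays and tested two-sided, with Benjamini-Hochberg adjustment over all genes at 0.05. The fit had 2 residual degrees of freedom, and the prior drawn from all genes added 2.396. An exact permutation of 1 array against 2 cannot give a p under 0.333. The fit was also run on simulated data in which controls and hairpins varied alike. With 1 control array per target, that assumption cannot be checked here. The members, the 6 pathway lists and the cell type markers were chosen with earlier results of these data known. Genes named were all members, BMI1, 13 pathway genes fixed by name, the listed markers, and for the member with the widest range in each role class the 3 genes with the most similar pattern. Promoters came from the RefSeq table for GRCh38.p14. Alternatives were pooled controls, the other control, quantile normalization, cyclic loess, array centring, the mean of probe sets, a filter on dim genes, other variance priors, the hairpin number as a block and leaving out each knockdown array. The number of arrays limits the precision.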

Additional observations from a re-analysis of the deposited data

Results flagged for a closer look

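CCND2 stood below the control with both BMI1 hairpins (-0.13 and -0.04) and above it with both FAL-1 hairpins (0.06 and 0.03), opposite signs in the 2 trios. FAL-1 change minus BMI1 change was 0.13, with a 95% interval of -0.37 to 0.63, and limma's adjusted p for it was 0.9999. After quantile normalization the FAL-1 shRNA1 change was -0.0048, and after cyclic loess the BMI1 shRNA2 change was 0.0061.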

How the results depend on the processing

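With pooled controls, quantile normalization, cyclic loess or the mean of probe sets, limma gave 0 calls for each of the 4 comparisons across genes. The filter on dim genes, other variance priors and the hairpin number as a replicate block also gave 0. An unadjusted p under 0.05 from limma gave 477, 563, 962 and 148. Calls were not counted against the other control or after array centring. Whether same-numbered hairpin arrays share more than a number is not stated. Their deviations correlated at 0.275 across genes, and the source of this was not tested. Of 20 member changes, 14 kept their direction under each alternative. The mean of probe sets and the replicate block could not alter a direction. Each member had 1 probe set, and the block left the mean of a target's hairpins unchanged. Against the other control CCNE1 and CDK4 with BMI1 knockdown turned to 0.0053 and -0.094, and CCND3 with FAL-1 to 0.035. Leaving out either FAL-1 hairpin, the FAL-1 change ranged from -0.053 to 0.35 for CCND1, -0.27 to 0.13 for CCND3, -1.08 to 0.051 for CDK2 and -0.80 to 0.21 for CDC25A. The 8 and 3 members below the control with both hairpins became 0 and 0 at 1.5-fold; with single hairpins (chosen after the data were seen) they were 8 with either for BMI1 and 5 with either for FAL-1. The BMI1 count was 7 after quantile normalization and 6 after cyclic loess.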
